A study of Mus musculus with 8 samples.

Results

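The miR-26 family of the mouse consists of 5 mature microRNAs (miRNAs) cut from 3 hairpins, and all 5 were followed here out of 1907 mature miRNAs counted in each small RNA library. The members were taken by name: mmu-miR-26b-5p and mmu-miR-26b-3p from 1 hairpin, and mmu-miR-26a-5p, mmu-miR-26a-1-3p and mmu-miR-26a-2-3p from the other 2 (the prefix mmu, for mouse, is left out below). The family was chosen by its LPS fold changes in these same libraries, in which 2 of its 3p arms were lower, so differences between LPS and control are given below as descriptions without a test. The cells were bone marrow-derived macrophages of wild-type mice aged 8 to 12 weeks, grown from marrow for 6 days in L929 supernatant, a conditioned medium that supplies the growth factor M-CSF. The treated group received LPS, a bacterial cell wall molecule sensed through Toll-like receptor 4, at 100 ng/ml for 3 h, and the control group was left unstimulated. Each group had 3 libraries made from total RNA. Whether these stand for different animals or cultures is not in the labels, and the spread between them may be technical.

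A miRNA hairpin is cut by Dicer into a duplex of a 5p and a 3p strand. One strand is usually kept in an Argonaute protein, where its seed, bases 2 to 8, finds target messages, and the other is mostly degraded. For miR-26 the 5p strand is the kept one. It is known in mammals as a brake on proliferation with Ezh2, a histone methyltransferase, among its targets. The 3 hairpins lie within genes of the Ctdsp family, small phosphatases that act on the C-terminal domain of RNA polymerase II and on the retinoblastoma protein.

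The mature sequences are shown because they decide which members can share targets and which can be told apart by sequencing. They are RefSeq sequences of the GRCm38.p6 assembly, written 5′ to 3′, with the seed in capitals, and all 5 members matched by name.
miR-26b-5p: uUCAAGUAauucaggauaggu
miR-26a-5p: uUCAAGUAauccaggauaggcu
miR-26b-3p: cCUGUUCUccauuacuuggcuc
miR-26a-2-3p: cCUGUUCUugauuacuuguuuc
miR-26a-1-3p: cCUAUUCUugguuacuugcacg

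The 5p arms had the seed UCAAGUA in common. Counted from the 5′ end and with miR-26a-5p first, they differed over 21 compared bases at C11U and C21U, and miR-26a-5p was 1 base longer. Among the 3p arms, miR-26a-2-3p and miR-26b-3p had the same seed, CUGUUCU, and differed outside it at U9C, G10C, U19G and U20C with miR-26a-2-3p first. The seed of miR-26a-1-3p was another one, through A4G with miR-26a-1-3p first, and 16 of its 22 bases were those of miR-26a-2-3p. RefSeq gave a sequence for 1623 of the 1907 listed miRNAs. No other of these 1623 had the 5p seed, and the seed of miR-26b-3p and miR-26a-2-3p also occurred in miR-6932-3p and miR-7039-3p, which had 0 counts in all 6 libraries.

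The hairpins show where each arm sits and how far the miR-26a loci resemble each other. The mature arms are in capitals.
Mir26b: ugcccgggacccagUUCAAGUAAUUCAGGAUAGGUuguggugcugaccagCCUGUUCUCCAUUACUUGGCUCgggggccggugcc
Mir26a-2: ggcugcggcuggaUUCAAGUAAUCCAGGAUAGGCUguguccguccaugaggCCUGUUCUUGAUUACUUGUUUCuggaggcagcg
Mir26a-1: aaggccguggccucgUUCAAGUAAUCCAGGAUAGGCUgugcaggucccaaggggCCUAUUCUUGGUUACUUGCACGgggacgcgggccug

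Mir26b lies at chr1:74394310-74394394 on the plus strand, within the span of Ctdsp1 (chr1:74391609-74397285). Mir26a-2 lies at chr10:126995530-126995613, within Ctdsp2 (chr10:126978717-126999975). Mir26a-1 lies at chr9:119031796-119031885, within Ctdspl (chr9:118926536-119044119). The gene table gives spans only, so exon or intron is not stated, and 0 other annotated hairpins overlapped any of the 3. The miR-26a-5p sequence occurs in both miR-26a hairpins. Around it 25 bases are identical in both, the 22 of the mature form and 3 after it, so a read within that stretch has no base that tells the loci apart. Each 3p arm occurs in 1 hairpin.

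Library totals ranged from 3280688 to 4105395 counts after LPS and from 3912296 to 4312555 counts in controls. CPM stands for counts in 1000000 of the library, and member levels below are CPM after TMM scaling, a correction for differences in library make-up. Of 7 myeloid marker miRNAs 6 were detected, and together they held 283470 to 319400 CPM of the unscaled library after LPS and 267510 to 318880 in controls. The seventh, miR-142a-3p, had 0 counts in all 6 libraries. The largest part of the sum was miR-21a-5p, at a mean of 226070 scaled CPM after LPS and 208820 in controls. miR-223-3p was at 2340 and 2279. The 2 endothelial markers summed to 0 after LPS and to at most 0.249 CPM in controls, and the 5 stromal markers to at most 2.25 and 2.24. The 5 erythroid markers had 0.501 to 1.52 CPM after LPS and 0 to 0.499 in controls, and any part of so low a signal in the results below was not tested. The 3 lymphocyte markers had 68.6 to 77.7 CPM after LPS and 58.2 to 77.6 in controls, and the 5 epithelial markers 194 to 227 and 202 to 228. miR-144-3p, miR-486a-5p, miR-486b-5p, miR-145a-5p, miR-199a-5p, miR-126a-5p and miR-205-5p were at 0 throughout. The lymphocyte marker miR-181a-5p is an arm shared by 2 hairpins, and how such reads were counted is not given in the sources used here. A 0 or a low sum is therefore not read as absence of a cell type.

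miR-26b-5p, the arm that carries the target-finding role of its hairpin, made up nearly all deposited counts of the family. It had 19547, 22893 and 23400 counts in the LPS libraries and 25021, 23671 and 23457 in the control libraries. Scaled, these were 6189, 5612 and 5939 CPM after LPS and 5940, 5745.5 and 5689 CPM in controls. The control libraries lay inside the range of the LPS libraries, so the groups overlapped. The means were 5913 ± 289 CPM after LPS and 5791.5 ± 132 CPM in controls (SD, n = 3 each), with a log2 fold change of LPS over control of 0.03 (SE 0.09). Its sign depended on the scaling: with upper-quartile factors or library totals the log2 fold change was -0.03. miR-26b-5p ranked 23 among all miRNAs after LPS and 21 in controls. Within the family it held 98.5% ± 0.142 of the counts after LPS and 97.9% ± 0.306 in controls.

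miR-26a-5p, with the same seed, had far fewer deposited counts. They were 149, 192 and 144 in the LPS libraries and 186, 252 and 168 in the control libraries. In scaled units it had 47.2, 47.1 and 36.5 CPM after LPS and 44.2, 61.2 and 40.7 CPM in controls. The groups overlapped, control replicate 2 being the highest library. Means were 43.6 ± 6.11 CPM after LPS and 48.7 ± 10.9 CPM in controls (SD, n = 3 each), and the log2 fold change was -0.16 (SE 0.20). Without control replicate 2 it was 0.05. For each count of miR-26a-5p there were 138 ± 22.3 of miR-26b-5p after LPS and 123 ± 25.0 in controls.

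**Figure D1:**
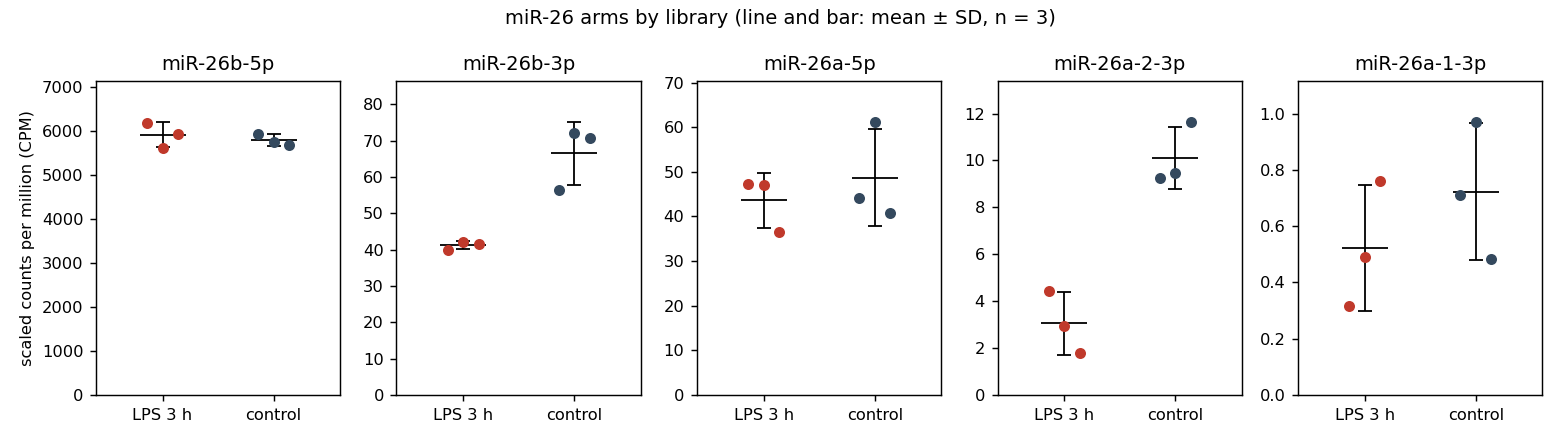
Scaled CPM (vertical axes, each starting at 0 and with its own range) of the 5 miR-26 arms in the LPS and control libraries, 1 point per library, with mean and SD (n = 3). LPS libraries lie below all control libraries for miR-26b-3p and miR-26a-2-3p, and the groups overlap for the other 3 arms.

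The low count of miR-26a-5p belongs to an arm that 2 hairpins share, and how reads with several matches were counted is not given in the sources used here. Among 11 arms annotated at 2 hairpins whose other, locus-specific arms summed to a mean of at least 10 counts, 4 had fewer counts than those other arms. miR-26a-5p had 6.27 counts for each count of miR-26a-1-3p and miR-26a-2-3p together, taken from means over all 6 libraries. By group it was 12.7 ± 2.41 after LPS and 4.55 ± 1.25 in controls (SD, n = 3 each), and the libraries did not overlap. The 3p counts below it were mostly of miR-26a-2-3p, 33 after LPS and 126 in controls, against 6 and 9 of miR-26a-1-3p. The fold change of miR-26a-2-3p took part in the choice of the family, so nothing is read from this separation. In the 5 shared arms whose identical stretch was at most 23 bases the ratio over all 6 libraries ran from 1.44 to 378. In the 6 with at least 24 bases, miR-26a-5p included, it ran from 0.013 to 8.30. The cut between 23 and 24 bases was not part of the planned design, the ranges overlap, and no test was made of it. In miR-26b, a hairpin at 1 place, the 5p arm had 144 ± 11.0 counts per 3p count after LPS and 88.4 ± 14.5 in controls. The part that counting of shared reads has in the level of miR-26a-5p was not tested, and its counts are therefore not read as its level in the cells relative to miR-26b-5p.

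**Figure D2:**
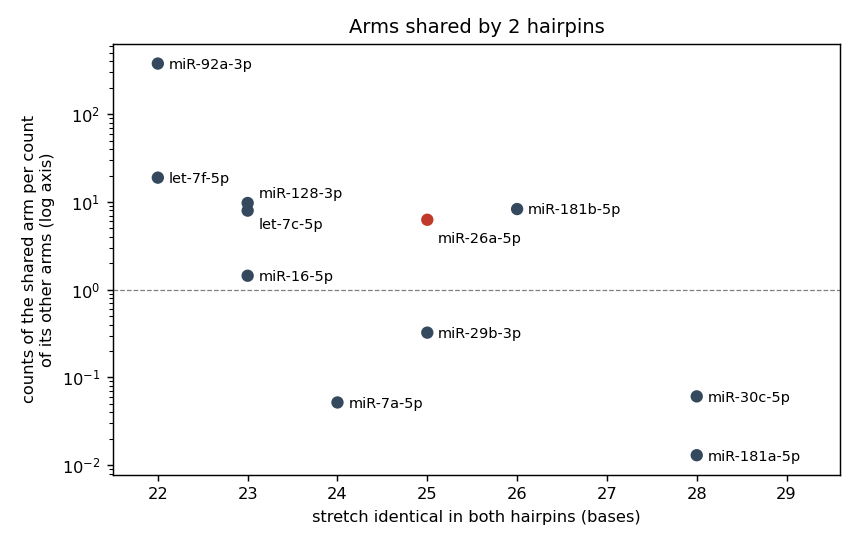
Counts of an arm shared by 2 hairpins per count of its locus-specific other arms (vertical, log axis; dashed line at 1) against the length in bases of the stretch around it that is identical in both hairpins (horizontal). Each of the 11 points is 1 shared arm over all 6 libraries; miR-26a-5p, in red, stands at 25 bases and a ratio of 6.27.

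Of the 3p arms, the strands usually discarded, 2 were lower in all LPS libraries than in all control libraries. miR-26b-3p, from the Ctdsp1 locus, had 126, 172 and 164 counts after LPS and 238, 297 and 292 in controls. In scaled units these were 39.9, 42.2 and 41.6 CPM after LPS and 56.5, 72.1 and 70.8 CPM in controls. All LPS libraries were below all control libraries, and control replicate 1 was the lowest of the controls. The means were 41.2 ± 1.19 CPM after LPS and 66.5 ± 8.65 CPM in controls (SD, n = 3 each). The level after LPS was 0.621 of the control level, a log2 fold change of -0.69 (SE 0.16). In bulk RNA, fewer cells that hold a miRNA and less of it in each cell cannot be told apart.

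miR-26a-2-3p, from the Ctdsp2 locus, has the seed of miR-26b-3p. It had 14, 12 and 7 counts after LPS and 39, 39 and 48 in controls. In scaled units these were 4.43, 2.94 and 1.78 CPM after LPS and 9.26, 9.47 and 11.6 CPM in controls. The groups did not overlap here either, and LPS replicate 3 was the lowest library. Means were 3.05 ± 1.33 CPM after LPS and 10.1 ± 1.32 CPM in controls (SD, n = 3 each), so that the LPS level was 0.297 of the control level, with a log2 fold change of -1.75 (SE 0.31). The counts summed to 33 after LPS and 126 in controls, and the ratio of these sums per scaled library size was 0.292, with an exact 95% interval for counting error of 0.193 to 0.431. The interval leaves out the spread between libraries, and these values served in the choice of the family, so it is not a test. miR-26a-2-3p reached the fit through its control libraries, the filter asking for about 10 counts in 3 libraries.

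miR-26a-1-3p, from the Ctdspl locus, was near the limit of detection and did not pass the filter. It had 1, 2 and 3 counts after LPS and 3, 4 and 2 in controls, and the groups overlapped. The ratio of summed counts, 6 after LPS and 9 in controls, was 0.743 per scaled library size, with an exact 95% interval for counting error of 0.218 to 2.34. At this depth a ratio as low as those of the other 3p arms could not be told from no difference. Reads carry no molecular identifiers, so such intervals cover counting error only.

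Among the 357 miRNAs of the edgeR fit, the libraries of the groups did not overlap, with LPS lower, for 2 of the 4 tested members and for 26 of all tested miRNAs (7.28%). These values took part in the choice of the family, so nothing is read from the count. The median log2 fold change of all tested miRNAs was 0.01. Of the 357, 2 had a lower log2 fold change than miR-26a-2-3p and 9 a lower one than miR-26b-3p. Leaving out 1 library gave log2 fold changes of -2.11 to -1.43 for miR-26a-2-3p, the smallest without LPS replicate 3. For miR-26b-3p they were -0.84 to -0.61, the smallest without control replicate 3 and the largest without control replicate 1.

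**Figure D3:**
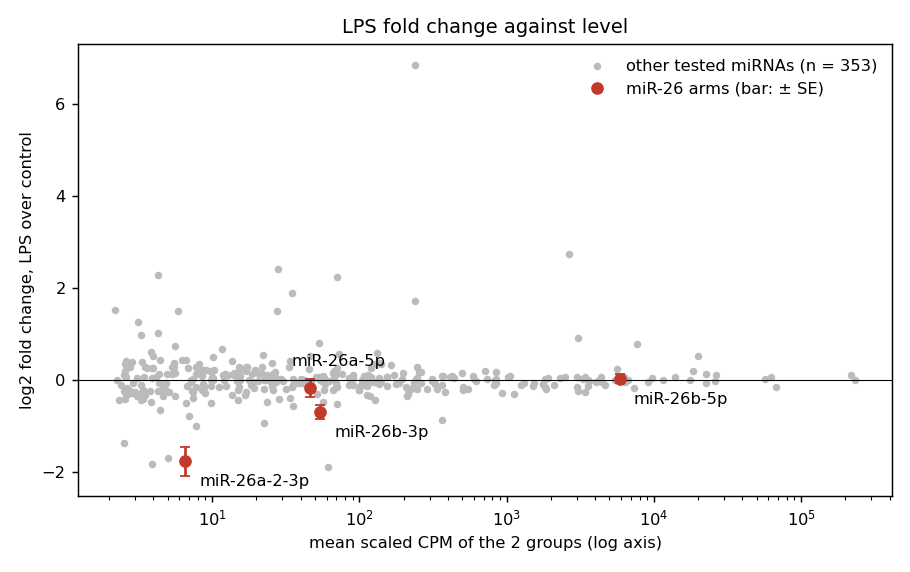
Log2 fold change of LPS over control (vertical) against the mean scaled CPM of the groups (horizontal, log axis) for all 357 tested miRNAs, with the 4 tested miR-26 arms in red and their SE as bars. miR-26a-2-3p stands at -1.75 and miR-26b-3p at -0.69, while miR-26b-5p, the most abundant of the 4, stands at 0.03.

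Within a hairpin, the balance of arms does not depend on scaling between libraries. miR-26b-3p made up 0.640%, 0.746% and 0.696% of the miR-26b counts in the LPS libraries and 0.942%, 1.24% and 1.23% in the control libraries. The highest LPS library was below the lowest control library, although their 95% Wilson intervals, 0.643% to 0.865% for LPS replicate 2 and 0.830% to 1.07% for control replicate 1, met. Group means were 0.694% ± 0.053 after LPS and 1.14% ± 0.169 in controls (SD, n = 3 each). On the log2 scale miR-26b-3p minus miR-26b-5p was lower after LPS by a difference of -0.70 (SE 0.19, limma fit over 115 pairs of arms).

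For miR-26a the 3p arm of the Ctdsp2 locus made up 8.54%, 5.83% and 4.55% of all miR-26a counts after LPS and 17.1%, 13.2% and 22.0% in controls. The LPS libraries were again all below the control libraries. The means were 6.30% ± 2.04 after LPS and 17.4% ± 4.41 in controls (SD, n = 3 each), and these shares rest on the miR-26a-5p counts of uncertain scale described above. The difference between groups of miR-26a-2-3p minus miR-26a-5p was -1.50 on the log2 scale (SE 0.32). The same contrast served in the choice, so this too is a description. The median difference over the 115 pairs was 0.01. With 1 library left out, the differences ran from -0.83 to -0.64 for miR-26b and from -1.71 to -1.28 for miR-26a-2.

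Over the whole family, the 5 arms held 0.588% ± 0.014 of all library counts after LPS and 0.603% ± 0.015 in controls (SD, n = 3 each), and the libraries overlapped. These are shares of deposited counts, with the miR-26a-5p counts of uncertain scale among them.

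**Figure D4:**
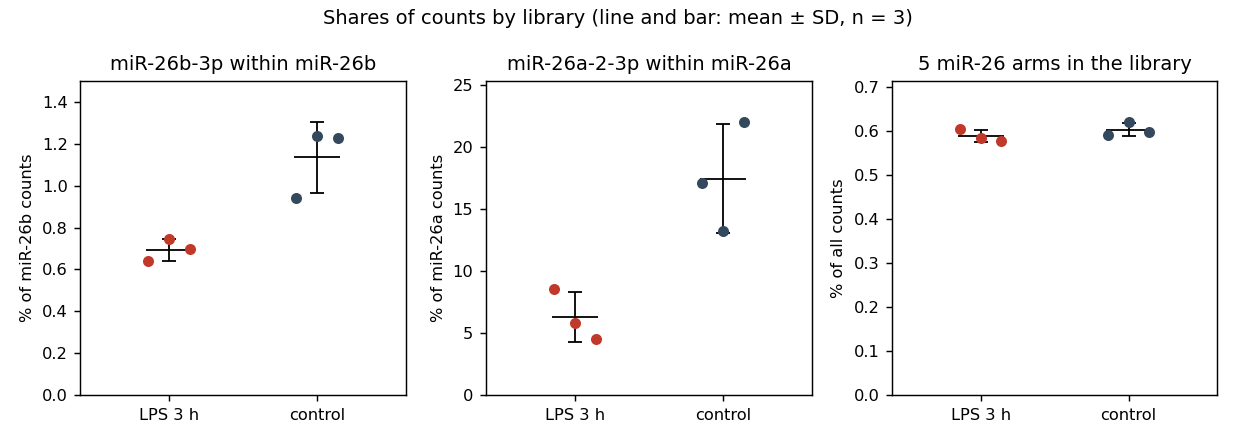
Share in percent (vertical axes from 0) of miR-26b-3p in the miR-26b counts, of miR-26a-2-3p in the miR-26a counts, and of the 5 arms in all counts, 1 point per library with mean and SD (n = 3). The 3p shares average 0.694% and 6.30% after LPS and 1.14% and 17.4% in controls, while the share of the family in the library overlaps between the groups.

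The counts of the arms stood in the order miR-26b-5p, then miR-26b-3p and miR-26a-5p, then miR-26a-2-3p, then miR-26a-1-3p in all 6 libraries. The locus-specific 3p arms can be set side by side, since each belongs to 1 hairpin. Over the 6 libraries miR-26b-3p exceeded miR-26a-2-3p by 3.24 ± 0.739 on the log2 scale of counts plus 0.5 (SD, n = 6), with 3.79 ± 0.665 after LPS and 2.70 ± 0.185 in controls (n = 3 each). miR-26a-2-3p exceeded miR-26a-1-3p by 2.93 ± 1.10 (n = 6), with 2.23 ± 1.09 after LPS and 3.64 ± 0.585 in controls (n = 3 each). Each difference had the same sign in 6 of 6 libraries, with p = 0.0312 in a two-sided exact sign-flip permutation test, the smallest that 6 libraries allow. The test takes the 6 libraries as independent, which the labels do not settle. Which arms were abundant and which minor was known before it was run. These p values therefore only restate that an order held in every library, and they are not read as support. miR-26b-5p exceeded its partner miR-26b-3p by 6.80 ± 0.419, again in 6 of 6 libraries, with 7.16 ± 0.110 after LPS and 6.45 ± 0.227 in controls. Of the 10 pairs of arms, 9 had this p and an adjusted value of 0.0347 over the 10 exact permutation tests. The exception was miR-26b-3p over miR-26a-5p, neighbours in the order at 0.20 ± 0.375, higher in 4 of 6 libraries, with a mean of -0.07 after LPS and 0.46 in controls (two-sided exact permutation p = 0.281, adjusted 0.281). A difference in counts between arms also includes any difference in how well each sequence is ligated and amplified, which was not tested. The pairs with miR-26a-5p compare deposited counts only, given the unknown counting of its shared reads.

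The gap between the 3p arms of the Ctdsp1 and Ctdsp2 loci was not the same in all libraries. There were 9, 14.3 and 23.4 counts of miR-26b-3p for each of miR-26a-2-3p after LPS, against 6.10, 7.62 and 6.08 in controls. All LPS libraries were above all controls, and the LPS libraries were the more spread out, with 7 to 14 counts of miR-26a-2-3p behind them. The closest libraries of the groups stood at 9 and 7.62. How often other ratios of arms part the groups was not counted. Fold changes of these arms took part in the choice of the family, so nothing is read from the separation. The arms of miR-26b were also set beside those of hairpins at 1 place with both arms past the filter. Its 3p arm held 0.925% of its counts over all 6 libraries. The median for the less abundant arm of these 86 hairpins was 7.59%, and 14 of them had a lower share. Hairpins whose less abundant arm fell under the filter are left out, so the comparison does not cover the most one-sided ones.

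Profiles across the 6 libraries were compared as log2 CPM centred on the mean of each miRNA, by the root mean square difference. The 2 nearest to miR-26b-5p were miR-30d-5p (0.034) and miR-30e-5p (0.044), abundant arms of the miR-30 family with log2 fold changes of -0.02 (SE 0.09) and 0.00 (SE 0.09). Nearest to miR-26a-5p were miR-149-5p (0.106) and miR-351-5p (0.109). miR-26b-3p had miR-511-5p (0.164), whose host gene Mrc1 encodes the mannose receptor, and miR-130b-5p (0.171) as nearest profiles. Neither passed the test, at 29.2 ± 2.79 CPM after LPS and 38.3 ± 6.49 CPM in controls for miR-511-5p and 109.6 ± 7.11 and 147 ± 27.7 CPM for miR-130b-5p (SD, n = 3 each). The nearest to miR-26a-2-3p was miR-3074-1-3p (0.212), at 1.71 ± 0.383 CPM after LPS and 6.11 ± 1.01 CPM in controls, followed by miR-25-5p (0.348), which was not called. miR-3074-1-3p was called lower by edgeR (log2 fold change -1.82, SE 0.32). It was named for its likeness to a member chosen as lower, so nothing is read from that call. The median root mean square difference over all tested miRNAs was 0.923 from miR-26a-2-3p and 0.410 from miR-26b-3p. From miR-26a-5p it was 0.322 and from miR-26b-5p 0.222.

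Arms of other hairpins that share a known trait with miR-26 were counted in the same fit, from lists that are not complete. Every arm of a listed hairpin was counted, whether or not the trait was reported for that arm. Of arms from hairpins listed as repressed by Myc in lymphoid tumour cells, to which miR-26a and miR-26b belong, 39 besides miR-26 were tested. Of these 2 rose, 0 fell and 37 were not called by edgeR at an adjusted p below 0.05 (Benjamini-Hochberg). Over all 357 tested miRNAs, miR-26 included, 13 rose (3.64%) and 5 fell (1.40%). At an unadjusted p below 0.05 edgeR had 2 of the 39 lower, against 16 of 357 (4.48%). Limma-voom called 0 of the list lower, against 5 of 357 (1.40%), and DESeq2 called 1 lower, miR-30c-1-3p, against 6 of 357 (1.68%). Counts this small are near those shares. Those that rose were miR-146a-3p, at 47.5 ± 5.23 CPM after LPS and 8.94 ± 3.28 CPM in controls (edgeR adjusted p = 0.000326), and miR-29b-1-5p, at 8.79 ± 2.55 and 3.04 ± 1.29 CPM (edgeR adjusted p = 0.0392). The members not called with the largest fold changes were miR-23a-5p, at -1.36 (SE 0.45) on the log2 scale, and miR-30c-1-3p, at -0.92 (SE 0.29). The list's median log2 fold change was 0.03, against 0.01 for all tested miRNAs.

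From a list, not complete, of hairpins that lie, as those of miR-26 do, within protein-coding genes, 52 arms besides miR-26 were tested. Of these 1 rose, 0 fell and 51 were not called by edgeR, with a median log2 fold change of -0.04. At an unadjusted p below 0.05 edgeR had 4 of the 52 lower, limma-voom called 0 lower, and DESeq2 called 1 lower, again miR-30c-1-3p. Against the shares of all tested miRNAs given above (3.64% higher, 1.40% lower and 4.48% lower unadjusted), nothing is read from these few calls. The one that rose was miR-455-5p, from the collagen gene Col27a1, at 7.15 ± 0.889 CPM after LPS and 1.45 ± 0.243 CPM in controls (edgeR adjusted p = 0.000713). The next by size, none of them called, were miR-455-3p (log2 fold change 1.53, SE 0.65), miR-25-5p (-0.99, SE 0.31) and the miR-30c-1-3p already named. Of arms from hairpins listed as targeting Ezh2, 3 besides miR-26 were tested. EdgeR, DESeq2 and limma-voom called 0 of them, with 0 at an unadjusted edgeR p below 0.05. The 3 arms were miR-101b-3p (0.19, SE 0.12), miR-101a-3p (0.08, SE 0.13) and miR-101a-5p (-0.07, SE 0.15). The first was at 757 ± 66.6 CPM after LPS and 664 ± 47.3 CPM in controls.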

How the data were processed

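Small RNA libraries of 3 LPS-treated and 3 control macrophage samples were used; 2 samples of a 3C-seq assay were not used here. The authors deposited raw counts per mature miRNA. Novoalign, SAMtools 0.1.19 and the build mm10 (GRCm38.p1) are named per the submitters' processing notes. How reads were counted, against which annotation, and what was done with reads of several matches is not given in the sources used here. TruSeq Small RNA libraries were made from total RNA, per the labels' protocols. The miR-26 members, lists and tests were chosen with earlier results of these data known.

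Counts of all 6 libraries were fitted with edgeR 4.0.16 (quasi-likelihood, TMM, filterByExpr with minimum count 10, Benjamini-Hochberg adjustment over 357 miRNAs) in R 4.3.3. The less abundant minus the abundant arm was fitted with limma 3.58.1 on log2 CPM (prior count 2), a shared arm being paired with each locus-specific arm. DESeq2 1.42.0, limma-voom, other scalings and filters, a replicate block and leaving out each library were alternatives. Replicates differed by more than counting noise, the lowest chi-square over degrees of freedom being 53.0. Named were the members, the 2 nearest profiles of each tested member, miRNAs with a member's seed and up to 4 further members of each list by absolute fold change. RefSeq (GRCm38.p6) gave sequences for 1623 of 1907 names.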

Additional observations from a re-analysis of the deposited data

How the results depend on the processing

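The log2 fold change of miR-26b-5p was -0.031 with upper-quartile factors and -0.025 with library totals, against 0.03 with TMM, and -0.039 to 0.076 when 1 library was left out. Leaving out 1 library gave -0.84 to -0.61 for miR-26b-3p, -2.11 to -1.43 for miR-26a-2-3p and -0.27 to 0.05 for miR-26a-5p, and 11 to 18 called miRNAs, the 11 without LPS replicate 3. miR-26b-3p and miR-26a-2-3p had negative values in all 14 and 13 alternatives. All LPS libraries lay below all controls for these arms, and the family was chosen by such values. The sign could thus hardly change, and its constancy is not read as support. With a minimum count of 50 miR-26a-2-3p could not be fitted. With library totals less the 2 most abundant miRNAs, the family's share was 1.07% after LPS and 1.10% in controls. In the 10 pairs of arms a pseudocount of 1 changed no order and no call. Deviations of same-numbered libraries had correlations of 0.025, 0.144 and -0.040, and those of other pairings ranged from -0.150 to 0.140. With 3 libraries per group these values cannot settle whether the numbers pair libraries. With a replicate block 17 miRNAs were called in place of 18. The log2 fold changes were then -0.68 for miR-26b-3p, -1.76 for miR-26a-2-3p, -0.15 for miR-26a-5p and 0.03 for miR-26b-5p. Depth limits the 3p arms of miR-26a, with 7 to 48 counts of miR-26a-2-3p and 1 to 4 of miR-26a-1-3p in a library.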

Other observations

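Besides miR-26a-5p, 10 arms shared by 2 hairpins had locus-specific other arms with enough counts to compare, and they spanned a wide range. miR-92a-3p had 378 counts per count of its other arms and let-7f-5p 18.9, both with an identical stretch of 22 bases. At the other end miR-181a-5p averaged 13.3 counts while miR-181a-1-3p and miR-181a-2-3p together averaged 1027, and miR-30c-5p averaged 6.00 against 98.7 for its other arms, both with an identical stretch of 28 bases. miR-7a-5p averaged 5.17 counts against 99.7, and miR-29b-3p 13.5 against 41.7. These arms were chosen after their values were seen, and no test was made of the relation to the length of the identical stretch.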
